A study of Mus musculus with 8 samples.

Results

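The genes described here are 35 genes of cholesterol and fatty acid synthesis, listed by gene symbol, and all 35 were found among the 25239 gene symbols of the deposited count table. They comprise 7 enzymes of the mevalonate pathway, 11 enzymes that turn its product into cholesterol, 6 regulators and transport proteins, 4 enzymes that supply carbon to or carry out fatty acid synthesis, 4 desaturases and 3 elongases. Polyadenylated RNA was sequenced in 8 libraries of primary mouse calvarial cells labelled osteoblasts, the bone-forming cells of the skull cap. Of these, 4 carry the genotype label KO(OSX-SphK2), a knockout of sphingosine kinase 2 tied by its name to Osx, the osteoblast-lineage factor also called Sp7. The other 4 come from littermate controls and carry the genotype label WT. The labels give no strain, age, sex, culture time or number of animals per library, and do not say whether the controls carry a Cre transgene.

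Cholesterol is built from acetyl-CoA by way of mevalonate, farnesyl diphosphate, squalene and lanosterol, and fatty acids are built from acetyl-CoA and malonyl-CoA and then lengthened and desaturated. The SREBP transcription factors, encoded by Srebf1 and Srebf2, drive most of these genes. Their precursors are held in the endoplasmic reticulum by Scap and the Insig proteins when sterols are plentiful, and are released for cleavage when sterols are scarce.

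Total counts ran from 14347495 to 17928713 in knockout-labelled libraries and from 14571389 to 19065421 in controls. Levels are given as CPM, each gene's count scaled to the size of its library after a TMM correction for differences in composition. Sphk2 RNA did not separate the labels, with 69.7, 72.3, 72.1 and 131.1 CPM in knockout-labelled libraries, against 75.8, 64.2, 82.5 and 133.8 CPM in controls (log2 fold change -0.05 ± 0.30, SE, edgeR adjusted p = 1), and the labels do not state which part of the gene was deleted, so the genotype is given throughout as labelled. The 2 libraries numbered 4 stood apart from the other 6 on a first principal component that held 73.7% of the variance. The osteoclast marker list summed to 6748 CPM in the knockout-labelled library 4, against 175.6 to 188.8 CPM in knockout-labelled libraries 1 to 3. It summed to 10222 CPM in control 4, against 171.8 to 277.9 CPM in controls 1 to 3. Summed in CPM, without length scaling, the 12 macrophage markers outweighed the 12 osteoblast markers in every library. In the knockout-labelled library 1 the sums were 31657 and 15700 CPM, with 18887 CPM from Lyz2 alone. In control 2 they were 28171 and 16881 CPM, with 17736 CPM from Lyz2, so the order in these libraries rests on Lyz2. Lyz2, the macrophage lysozyme gene, ran from 16416 to 34460 CPM in knockout-labelled libraries, against 17736 to 24427 CPM in controls. Bglap, which encodes the osteoblast protein osteocalcin, had 42.3 CPM in the knockout-labelled library 1 alone. It had 0.489, 0.278 and 0 CPM in knockout-labelled libraries 2 to 4, against 0.225 to 0.582 CPM in controls. Col1a1, the main bone collagen gene, ran from 906.8 to 6050 CPM in knockout-labelled libraries, against 1761 to 7205 CPM in controls. In such bulk RNA, fewer cells of a type and less RNA per cell cannot be told apart. The p-values set a difference against the spread from library to library, and some of that spread may be technical.

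To set genes beside each other, levels were divided by annotated exon length, merged over all annotated transcripts of a gene. The merged length can exceed that of the transcripts present, so the order of genes depends in part on the annotation. On this scale the highest levels over the 8 libraries belonged to Acly (41.6 CPM per kilobase), Fads1 (40.6), Elovl1 (40.5) and Scd2 (38.6). Acly makes cytosolic acetyl-CoA from citrate, the starting point of both pathways. Srebf2, which encodes the factor that favours cholesterol genes, had 30.5 CPM per kilobase, and Srebf1 had 16.8. Insig1 had 23.6, against 9.49 for its paralogue Insig2. The lowest levels belonged to Acss2 (1.15), Elovl6 (2.29), Lss (2.55) and Tm7sf2 (2.69). Merged exon lengths were 10163 bases for Acss2 and 10787 bases for Lss, and how far these lengths lower their values was not tested. All 35 genes passed the filter on low counts, which kept 12837 symbols.

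**Figure D1:**
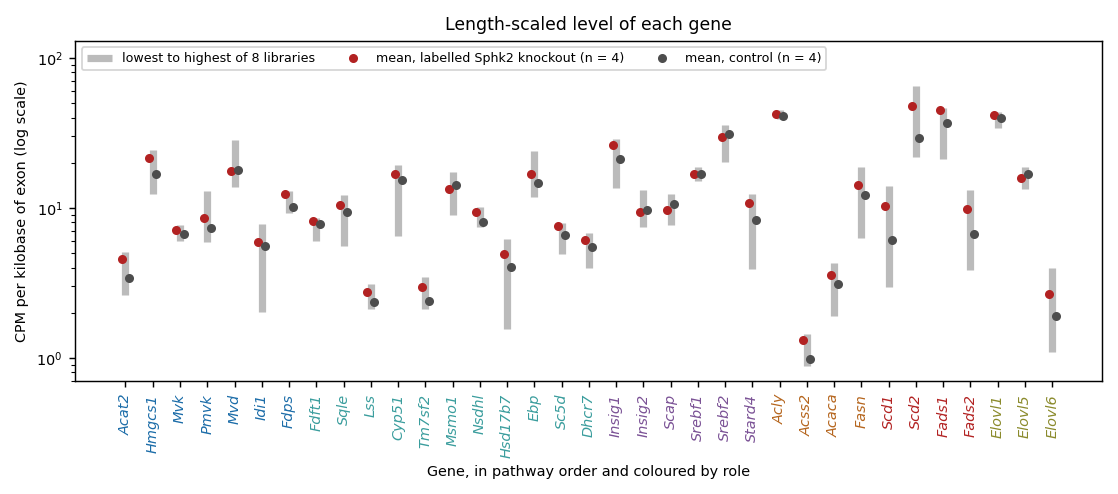
Length-scaled level of each of the 35 genes in CPM per kilobase of exon on a log axis, in pathway order, with the mean of 4 knockout-labelled libraries and of 4 controls as points and the lowest to highest of the 8 libraries as a grey bar. Levels span from 1.15 CPM per kilobase for Acss2 to 41.6 for Acly, and Scd1, Hsd17b7 and Idi1 have long bars.

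The start regions of 4 of these genes are shown because SREBP acts through short promoter motifs, often beside a site for NF-Y. The sequences are the 300 bases from 250 before to 50 after the start in the RefSeq table of build GRCm38.p6, written in lower case. Capitals mark matches on either strand to TCACNCCAC, a form of the sterol regulatory element, or to CCAAT, the NF-Y core.
Hmgcs1, chr13:119690101-119690400, plus strand: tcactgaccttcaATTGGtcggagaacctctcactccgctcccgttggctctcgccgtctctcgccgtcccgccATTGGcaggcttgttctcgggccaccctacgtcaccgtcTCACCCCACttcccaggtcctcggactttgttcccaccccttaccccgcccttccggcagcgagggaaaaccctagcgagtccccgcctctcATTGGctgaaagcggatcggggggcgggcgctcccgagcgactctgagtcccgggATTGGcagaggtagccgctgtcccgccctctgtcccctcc
Nsdhl, chrX:72918271-72918570, plus strand: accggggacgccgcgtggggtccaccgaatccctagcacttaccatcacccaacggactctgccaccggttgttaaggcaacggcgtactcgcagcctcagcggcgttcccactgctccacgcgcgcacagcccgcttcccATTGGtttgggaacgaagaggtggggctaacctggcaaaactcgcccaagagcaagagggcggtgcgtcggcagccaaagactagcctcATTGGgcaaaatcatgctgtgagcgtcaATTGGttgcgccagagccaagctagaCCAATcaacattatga
Insig1, chr5:28071162-28071461, plus strand: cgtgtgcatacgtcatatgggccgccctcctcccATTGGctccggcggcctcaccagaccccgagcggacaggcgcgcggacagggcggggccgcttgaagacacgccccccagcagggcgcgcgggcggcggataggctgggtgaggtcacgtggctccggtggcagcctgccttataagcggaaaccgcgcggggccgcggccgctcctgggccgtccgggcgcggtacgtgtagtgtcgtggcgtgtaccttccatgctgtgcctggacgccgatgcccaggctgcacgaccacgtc
Srebf2, chr15:82147019-82147318, plus strand: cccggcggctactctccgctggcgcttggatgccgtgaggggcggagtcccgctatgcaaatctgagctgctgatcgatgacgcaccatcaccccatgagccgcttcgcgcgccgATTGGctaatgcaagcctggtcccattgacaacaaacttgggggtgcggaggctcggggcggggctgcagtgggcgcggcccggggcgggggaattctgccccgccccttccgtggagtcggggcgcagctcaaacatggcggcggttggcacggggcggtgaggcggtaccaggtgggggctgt
The table held 37 start regions for 28 of the 35 genes. TCACNCCAC was found in 1 of the 37 (2.7%), that of Hmgcs1, where it begins at position -137 from the start, against 1.24% of all 32851 start regions of the table and 1.15% of the 13034 that belong to genes tested. CCAAT was found in 24 of the 37 (64.9%), against 37.4% of all start regions and 37.5% of those of genes tested. GGGCGG, the SP1 core, was found in 28 of the 37 (75.7%), against 35.7% of all and 61.8% of those of genes tested; the 3 motifs do not contain one another. Hmgcs1 and Nsdhl held 4 CCAAT matches each, and Insig1 and Srebf2 held 1 each. These matches are descriptions of letters in a window. Only this exact form of the sterol regulatory element was searched, so a region without a match may hold another form. No start region was matched for Scd1, Scd2, Fdps, Fdft1, Sqle, Fads1 or Stard4.

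Most of these genes had somewhat more RNA in the knockout-labelled libraries, but no single one separated from the controls when all 8 libraries were compared without regard to their numbers. The fitted log2 fold change, knockout-labelled over control, was positive for 28 of 35 genes (80%; 30 with library totals as the only scaling), with a median of 0.21, against 46.7% and -0.02 over all 12837 genes tested. With edgeR's quasi-likelihood test and Benjamini-Hochberg adjustment over all genes, 0 of 35 passed an adjusted p of 0.05 in either direction, and over all genes tested the shares were 0% higher and 0% lower. Acss2 had the smallest adjusted p (edgeR, 0.829), and 2 of the 35 had an unadjusted p under 0.05, against 4.92% of all genes. DESeq2 and limma-voom on the same 8 libraries also called 0 of 35, where DESeq2 called 0.989% of all genes higher and 0.382% lower, and limma-voom called 0%. Only for Acss2 and Fads1 did the 4 knockout-labelled libraries all lie above the 4 controls, which is 2 of 35, against 2.32% of all genes; for 0 of 35 did they all lie below, against 1.27%.

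Same-numbered libraries varied together, and with the number as a block Hmgcs1 alone rose: 1 of 35 genes (2.86%) was called higher, against 1.31% of all genes, and 0 were called lower, against 1.18%. Without the libraries numbered 4, and without a block, 7 of 35 (20%) rose, against 7.78% of all genes: Acat2, Hmgcs1, Fdps, Nsdhl, Insig1, Acss2 and Scd2. None of the 35 fell there, against 6.29% of all genes. With both the block and numbers 1 to 3 alone, 15 of 35 (42.9%) rose, against 12.3%, and 3 (8.57%) fell, against 11.9%. The 3 that fell were Msmo1, Scap and Srebf2, and their share was below that of all genes. In numbers 1 to 3, the knockout-labelled libraries all lay above the controls for 15 of 35 genes, against 18.2% of all genes, and all below for 4, against 16.4%. DESeq2 with the block called 2 of 35 higher (Hmgcs1 and Fads2), against 4.21% of all genes, and 0 lower, against 3.15%; limma-voom with the block called Hmgcs1 higher, against 2.72%, and 0 lower, against 2.19%. In numbers 1 to 3, DESeq2 called 7 higher, against 8.13%, and 0 lower, against 7.4%, and limma-voom called 7 higher, against 7.63%, and 0 lower, against 6.05%. Of the 7 that edgeR called there, 5 were called by all 3 tools (Acat2, Acss2, Fdps, Hmgcs1 and Scd2). The comparison of numbers 1 to 3 was chosen with earlier results of these data known.

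**Figure D2:**
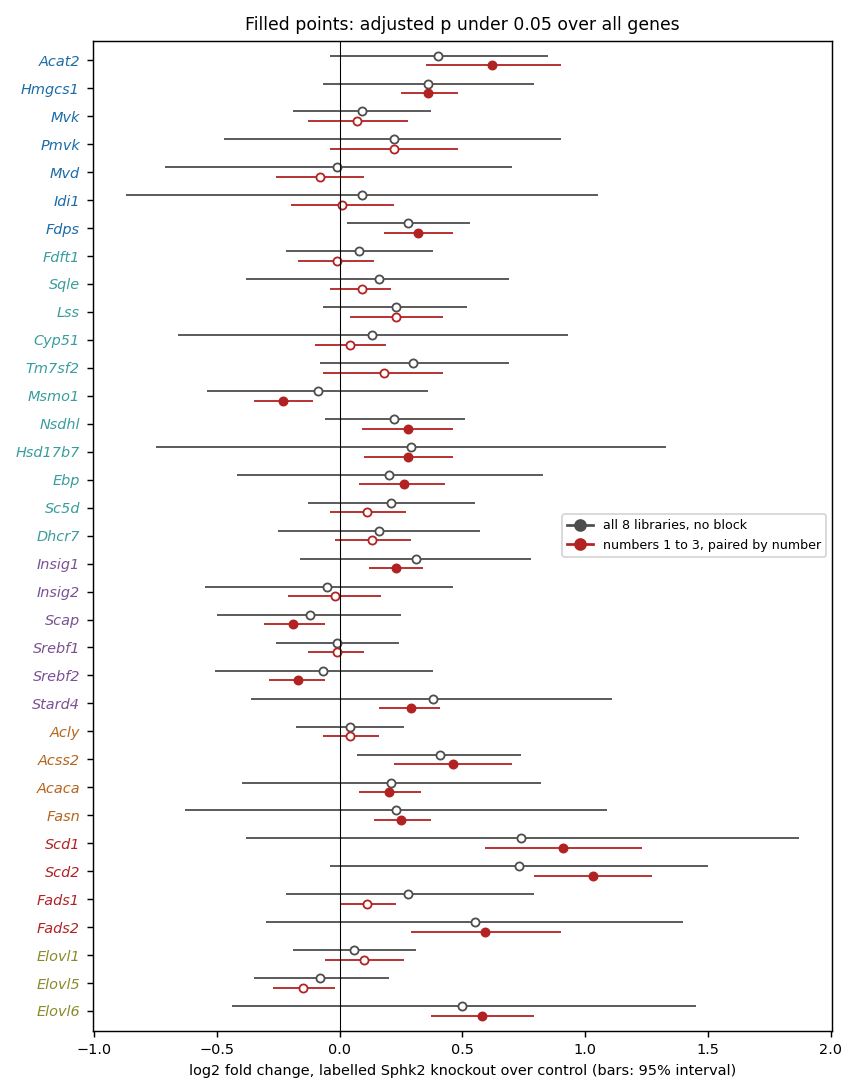
Fitted log2 fold change, knockout-labelled over control, of each of the 35 genes with its 95% interval, from all 8 libraries and from numbers 1 to 3 with the number as a block. The fits differ both in the block and in the libraries used. For Scd2 the interval is 0.79 to 1.27 in numbers 1 to 3 with the block and -0.04 to 1.5 with all 8 libraries, where adding the block alone gives -0.13 to 1.46.

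Of the mevalonate enzymes, 6 of 7 had positive log2 fold changes (7 of 7 with library totals as the only scaling). In numbers 1 to 3, 3 (42.9%) rose, namely Hmgcs1, Acat2 and Fdps, against 7.78% of all genes. Hmgcs1, on chromosome 13 (GRCm38 119690379 to 119708260, plus strand), encodes the synthase that makes HMG-CoA, and its start region with the sterol regulatory element letters is printed above. It had 111.1, 109.7, 100.6 and 72.7 CPM in knockout-labelled libraries 1 to 4, against 82.6, 88.3, 79.6 and 56.7 CPM in controls 1 to 4. Every knockout-labelled library exceeded the control of its own number, and the groups overlapped only through the knockout-labelled library 4, which lay below controls 1 to 3. In log2 terms the fold change was 0.36 ± 0.19 (SE, n = 4 each; edgeR adjusted p = 1) without the block and 0.36 ± 0.05 with it (edgeR adjusted p = 0.0385). Without number 4 and with the block it was 0.36 ± 0.05 (edgeR adjusted p = 0.000652). When number 1, 2 or 3 was left out with the block, the log2 fold change stayed at 0.34, 0.38 and 0.37 but the call was lost (edgeR adjusted p = 0.208, 0.253 and 0.337), and those fits called 0 genes of all tested. Of the gene's exon bases, 12.1% are overlapped by Gm48342, an antisense gene.

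Acat2 encodes the cytosolic thiolase that joins acetyl-CoA units in the step before Hmgcs1. It had 11.5, 12.9, 12.4 and 9.32 CPM in knockout-labelled libraries, against 6.72, 8.99, 8.33 and 10.8 CPM in controls. In pairs 1 to 3 the knockout-labelled library was higher, and in pair 4 it was lower, so the groups overlapped. The log2 fold change was 0.40 ± 0.19 with all 8 libraries (edgeR adjusted p = 1; with the block 0.244) and 0.62 ± 0.12 in numbers 1 to 3 with the block (edgeR adjusted p = 0.00497). Of its 50-base stretches of transcript, 39.1% also occur in Acat3, which had at most 6 counts in a library, so the split between that pair is uncertain. Fdps, which makes farnesyl diphosphate, the branch point to sterols and to protein prenylation, had 47.1, 54.3, 52.8 and 54.3 CPM in knockout-labelled libraries, against 38.7, 44.1, 41.0 and 47.8 CPM in controls. The knockout-labelled library was the higher in 4 of 4 pairs, and only the knockout-labelled library 1 lay below any control. Its log2 fold change was 0.28 ± 0.11 (edgeR adjusted p = 0.906; with the block 0.0604), and 0.32 ± 0.06 in numbers 1 to 3 with the block (edgeR adjusted p = 0.00428). The readthrough gene Gm43738 shares 23.42% of its 50-base stretches.

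The other 4 mevalonate enzymes did not pass in these fits. Mvk, the mevalonate kinase, ran from 17.7 to 20.5 CPM in knockout-labelled libraries, against 16.1 to 19.7 CPM in controls. Pmvk, the next kinase, ran from 11.6 to 22.1 CPM in knockout-labelled libraries, against 10.1 to 19.0 CPM in controls, with the libraries numbered 4 highest in both groups. It was higher in 4 of 4 pairs, with a log2 fold change of 0.22. Mvd, the decarboxylase that makes isopentenyl diphosphate, ran from 26.2 to 52.7 CPM in knockout-labelled libraries, against 25.5 to 48.5 CPM in controls, again with number 4 highest in both groups. Idi1, the isomerase of that product, ran from 11.6 to 27.2 CPM in knockout-labelled libraries, against 7.13 to 24.9 CPM in controls, with number 4 lowest in both groups; Gm13502 and other copies share 17.67% of its 50-base stretches. The intervals of the log2 fold change reached from -0.19 to 0.37 for Mvk and from -0.71 to 0.70 for Mvd.

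**Figure D3:**
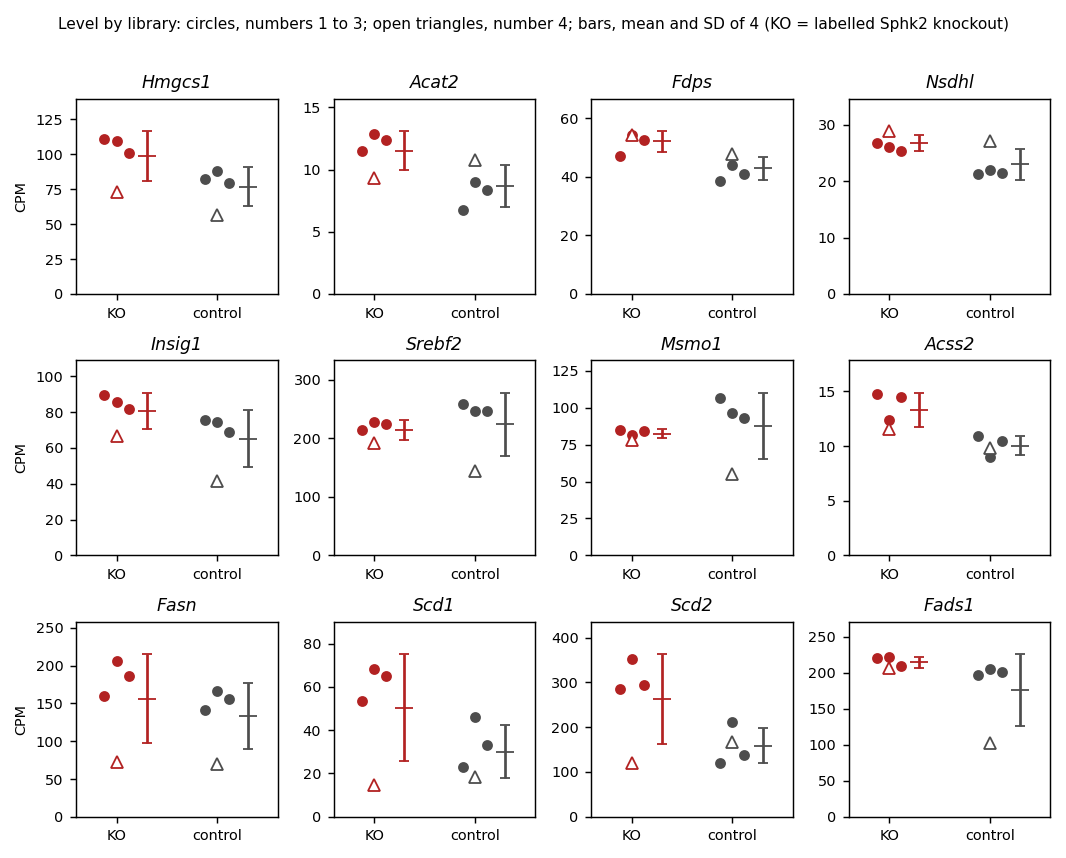
CPM of 12 of the genes in each of the 8 libraries, with knockout-labelled libraries left of controls, numbers 1 to 3 as circles, number 4 as triangles, and the mean and SD of each group (n = 4). In Hmgcs1 the circles of the groups do not overlap and the triangles lie lower in both groups; in Msmo1 and Srebf2 control 4 lies far below controls 1 to 3.

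Of the 11 enzymes from squalene to cholesterol, 10 had positive log2 fold changes with all 8 libraries, with a median of 0.20, but the median was 0.04 without control 4. In numbers 1 to 3, Nsdhl rose, and with the block Hsd17b7 and Ebp also rose while Msmo1 fell. Nsdhl, Hsd17b7 and Msmo1 encode the enzymes that together remove methyl groups from the sterol ring, so members of the same step moved in opposite directions there. Nsdhl had 26.8, 26.1, 25.3 and 28.8 CPM in knockout-labelled libraries, against 21.3, 22.0, 21.4 and 27.1 CPM in controls. Knockout-labelled libraries 1 to 3 lay above controls 1 to 3, and both libraries numbered 4 were the highest of their group. The fitted log2 fold change was 0.22 ± 0.12 (edgeR adjusted p = 1), and 0.28 ± 0.08 in numbers 1 to 3 with the block (edgeR adjusted p = 0.0335).

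Hsd17b7 had 30.5, 31.6, 27.3 and 10.6 CPM in knockout-labelled libraries, against 24.1, 28.1, 22.0 and 7.90 CPM in controls. All 4 pairs had the knockout-labelled library higher, with number 4 far below the rest in both groups, and its log2 fold change in numbers 1 to 3 with the block was 0.28 ± 0.08 (edgeR adjusted p = 0.0303). Msmo1 had 85.2, 81.6, 84.5 and 78.4 CPM in knockout-labelled libraries, against 106.2, 96.3, 92.7 and 54.9 CPM in controls. Knockout-labelled libraries 1 to 3 lay below controls 1 to 3, whereas the knockout-labelled library 4 lay above control 4. Its log2 fold change was -0.09 ± 0.20 with all 8 libraries (edgeR adjusted p = 1) and -0.23 ± 0.05 in numbers 1 to 3 with the block (edgeR adjusted p = 0.0131). Ebp, the sterol isomerase, had 35.7, 31.8, 33.0 and 55.4 CPM in knockout-labelled libraries, against 27.7, 27.5, 29.1 and 51.0 CPM in controls. Here too 4 of 4 pairs were higher, with number 4 highest in both groups, and its log2 fold change in numbers 1 to 3 with the block was 0.26 ± 0.08 (edgeR adjusted p = 0.0359).

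The remaining sterol enzymes did not pass in these fits. Sqle, the squalene epoxidase, had 58.7, 67.3, 60.4 and 44.6 CPM in knockout-labelled libraries, against 58.5, 61.8, 55.6 and 31.0 CPM in controls. The groups overlapped, and control 4 was the lowest library; the log2 fold change was 0.16 ± 0.23 (edgeR adjusted p = 1; interval -0.38 to 0.69). Tm7sf2, a sterol reductase, had 14.0, 10.8, 12.3 and 15.3 CPM in knockout-labelled libraries, against 12.2, 9.39, 11.1 and 9.58 CPM in controls. It was higher in 4 of 4 pairs, with most of the difference in pair 4 (log2 difference 0.67), and its log2 fold change was 0.30 ± 0.17 (edgeR adjusted p = 1). Vps51 and others share 9.87% of its 50-base stretches.

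Fdft1, the squalene synthase, ran from 33.9 to 35.9 CPM in knockout-labelled libraries, against 25.6 to 36.1 CPM in controls, and its exons overlap those of Ctsb, on the opposite strand, over 18.3% of their bases. Ctsb itself had a log2 fold change of 0.49 with all 8 libraries and 0.64 in numbers 1 to 3 with the block (edgeR adjusted p = 0.000102), and its part in the Fdft1 counts was not tested. Lss, which closes the sterol rings, ran from 26.6 to 33.4 CPM in knockout-labelled libraries, against 22.8 to 27.9 CPM in controls, and was higher in 4 of 4 pairs. Cyp51, the lanosterol demethylase, ran from 48.7 to 85.5 CPM in knockout-labelled libraries, against 28.9 to 84.7 CPM in controls, with number 4 lowest in both groups. Sc5d, a sterol desaturase, ran from 36.0 to 38.7 CPM in knockout-labelled libraries, against 24.0 to 36.3 CPM in controls. Dhcr7, the last reductase on a route to cholesterol, ran from 28.3 to 39.8 CPM in knockout-labelled libraries, against 23.3 to 36.0 CPM in controls. Both were higher in 4 of 4 pairs, with log2 fold changes of 0.21 for Sc5d and 0.16 for Dhcr7.

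Among the regulators, 2 of 6 had positive log2 fold changes with all 8 libraries (3 of 6 with library totals as the only scaling), with a median of -0.03. In numbers 1 to 3 with the block, Insig1 and Stard4 rose while Srebf2 and Scap fell. Insig1, which encodes the retention protein and is itself an SREBP target, had 89.3, 85.5, 81.7 and 66.5 CPM in knockout-labelled libraries, against 75.6, 74.7, 68.7 and 41.6 CPM in controls. Each pair was higher in the knockout-labelled library, and controls 1 to 3 lay below knockout-labelled libraries 1 to 3. The log2 fold change was 0.31 ± 0.20 (edgeR adjusted p = 1), and 0.23 ± 0.05 in numbers 1 to 3 with the block (edgeR adjusted p = 0.00829). Stard4, a carrier of cholesterol between membranes, had 69.2, 68.5, 61.7 and 41.4 CPM in knockout-labelled libraries, against 59.3, 56.0, 48.5 and 21.7 CPM in controls. The difference was positive in 4 of 4 pairs, with the largest difference in pair 4, and its log2 fold change in numbers 1 to 3 with the block was 0.29 ± 0.06 (edgeR adjusted p = 0.00438).

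Srebf2 had 213.2, 227.0, 224.5 and 191.2 CPM in knockout-labelled libraries, against 257.8, 247.1, 246.7 and 144.0 CPM in controls. Knockout-labelled libraries 1 to 3 lay below controls 1 to 3, and control 4 was the lowest of all, so pair 4 ran the other way. The fitted log2 fold change was -0.07 ± 0.19 with all 8 libraries (edgeR adjusted p = 1) and -0.17 ± 0.05 in numbers 1 to 3 with the block (edgeR adjusted p = 0.0377). Scap, which escorts SREBP precursors to the Golgi, had 73.5, 77.5, 74.8 and 62.8 CPM in knockout-labelled libraries, against 84.4, 80.9, 92.3 and 56.9 CPM in controls. It showed the same arrangement as Srebf2, with pair 4 opposite to pairs 1 to 3, and a log2 fold change of -0.19 ± 0.06 in numbers 1 to 3 with the block (edgeR adjusted p = 0.042); another gene overlaps 13.2% of its exon bases.

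Srebf1, whose products favour fatty acid genes, had 85.9, 95.6, 90.7 and 105.8 CPM in knockout-labelled libraries, against 88.7, 91.2, 94.8 and 105.9 CPM in controls. The groups overlapped throughout, and the log2 fold change was -0.01 ± 0.11 (edgeR adjusted p = 1) with an interval of -0.26 to 0.24. With the block the interval was -0.14 to 0.12. Insig2 had 30.5, 30.4, 25.9 and 42.9 CPM in knockout-labelled libraries, against 30.9, 27.5, 29.7 and 45.8 CPM in controls. Number 4 was the highest in both groups, the groups overlapped, and the log2 fold change was -0.05 ± 0.22 (edgeR adjusted p = 1; interval -0.55 to 0.46).

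All 4 genes of carbon supply and fatty acid synthesis had positive log2 fold changes with all 8 libraries, with a median of 0.22, which was 0.02 without control 4. Acss2, which makes acetyl-CoA from acetate, rose in numbers 1 to 3 with and without the block, and Acaca and Fasn rose there with the block. Acss2 had 14.8, 12.4, 14.5 and 11.6 CPM in knockout-labelled libraries, against 10.9, 8.99, 10.5 and 9.79 CPM in controls. All 4 knockout-labelled libraries lay above all 4 controls, by a small margin between the knockout-labelled library 4 and control 1. Its log2 fold change was 0.41 ± 0.15 (edgeR adjusted p = 0.829; with the block 0.0854), and 0.46 ± 0.11 in numbers 1 to 3 with the block (edgeR adjusted p = 0.0119). Other genes, among them Gss on the opposite strand, overlap 9.1% of its exon bases in all.

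Acaca, the carboxylase that makes malonyl-CoA, had 65.3, 72.8, 67.7 and 39.0 CPM in knockout-labelled libraries, against 57.0, 66.1, 56.0 and 32.6 CPM in controls. It was higher in 4 of 4 pairs, with number 4 lowest in both groups, and its log2 fold change in numbers 1 to 3 with the block was 0.20 ± 0.06 (edgeR adjusted p = 0.0229); other annotated transcripts, mostly of Gm5182, share 30.42% of its 50-base stretches. Fasn, the fatty acid synthase, had 160.2, 205.9, 186.4 and 72.2 CPM in knockout-labelled libraries, against 141.1, 166.3, 155.3 and 69.4 CPM in controls. It too was higher in 4 of 4 pairs, although control 2 exceeded the knockout-labelled library 1, and its log2 fold change in numbers 1 to 3 with the block was 0.25 ± 0.05 (edgeR adjusted p = 0.00543). Acly ran from 210.1 to 236.3 CPM in knockout-labelled libraries, against 205.7 to 223.7 CPM in controls. Its log2 fold change was 0.04 ± 0.09 (edgeR adjusted p = 1), with an interval of -0.18 to 0.26.

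The desaturases had the largest median of the 6 role groups, a log2 fold change of 0.64 over 4 genes with all 8 libraries. In numbers 1 to 3 with the block, 3 of 4 (75%) rose, against 12.3% of all genes. In pair 4 only Fads1 and Fads2 were higher. Scd2, on chromosome 19 (GRCm38 44293674 to 44306864, plus strand), and Scd1, on the same chromosome (44394455 to 44407879, minus strand), encode stearoyl-CoA desaturases, which make monounsaturated fatty acids. Scd2 had 285.0, 352.8, 294.2 and 119.2 CPM in knockout-labelled libraries, against 120.3, 210.8, 138.0 and 165.9 CPM in controls. Knockout-labelled libraries 1 to 3 lay above every control, and the knockout-labelled library 4 lay below every control. The fitted log2 fold change was 0.73 ± 0.33 (edgeR adjusted p = 1; with the block 0.307), and 1.03 ± 0.10 in numbers 1 to 3 with the block (edgeR adjusted p = 0.000766).

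Scd1 had 53.5, 68.1, 65.2 and 14.5 CPM in knockout-labelled libraries, against 22.9, 46.1, 33.3 and 18.2 CPM in controls. The arrangement was that of Scd2, with the knockout-labelled library 4 lowest of all 8. The log2 fold change was 0.74 ± 0.49 (edgeR adjusted p = 1; with the block 0.239), and 0.91 ± 0.13 in numbers 1 to 3 with the block (edgeR adjusted p = 0.00462). Other transcripts share 4.56% of the 50-base stretches of Scd1 and 3.97% of those of Scd2. Fads2, the first desaturase of polyunsaturated fatty acids, had 32.1, 43.4, 35.4 and 19.4 CPM in knockout-labelled libraries, against 16.7, 36.7, 22.8 and 12.7 CPM in controls. It was higher in 4 of 4 pairs, although control 2 exceeded knockout-labelled libraries 1, 3 and 4. The log2 fold change was 0.55 ± 0.37 (edgeR adjusted p = 1; with the block 0.058), and 0.59 ± 0.13 in numbers 1 to 3 with the block (edgeR adjusted p = 0.0152). Fads1, the next desaturase of that route, had 220.8, 222.4, 209.0 and 206.8 CPM in knockout-labelled libraries, against 197.0, 204.8, 201.7 and 102.2 CPM in controls. All 4 knockout-labelled libraries lay above all 4 controls, with control 4 far below the rest, and the log2 fold change was 0.28 ± 0.22 (edgeR adjusted p = 1), against 0.11 ± 0.05 in numbers 1 to 3 with the block (edgeR adjusted p = 0.132).

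Of the elongases, Elovl6 rose in numbers 1 to 3 with the block. Elovl6, which lengthens palmitate to stearate and so supplies the Scd enzymes, had 18.9, 25.6, 17.5 and 6.99 CPM in knockout-labelled libraries, against 12.3, 17.4, 11.8 and 7.13 CPM in controls. Knockout-labelled libraries 1 to 3 lay above controls 1 to 3, and both libraries numbered 4 were close together below the rest. Its log2 fold change was 0.50 ± 0.41 (edgeR adjusted p = 1; with the block 0.12), and 0.58 ± 0.09 in numbers 1 to 3 with the block (edgeR adjusted p = 0.00134). Elovl1, the elongase of very long saturated chains, ran from 108.6 to 118.8 CPM in knockout-labelled libraries, against 92.8 to 118.6 CPM in controls. Elovl5, which lengthens polyunsaturated chains, ran from 53.5 to 57.2 CPM in knockout-labelled libraries, against 47.3 to 65.9 CPM in controls. It was lower in pairs 1 to 3 and higher in pair 4, and did not pass the test (log2 fold change -0.08 ± 0.12, edgeR adjusted p = 1; -0.15 ± 0.06, edgeR adjusted p = 0.0856, in numbers 1 to 3 with the block).

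**Figure D4:**
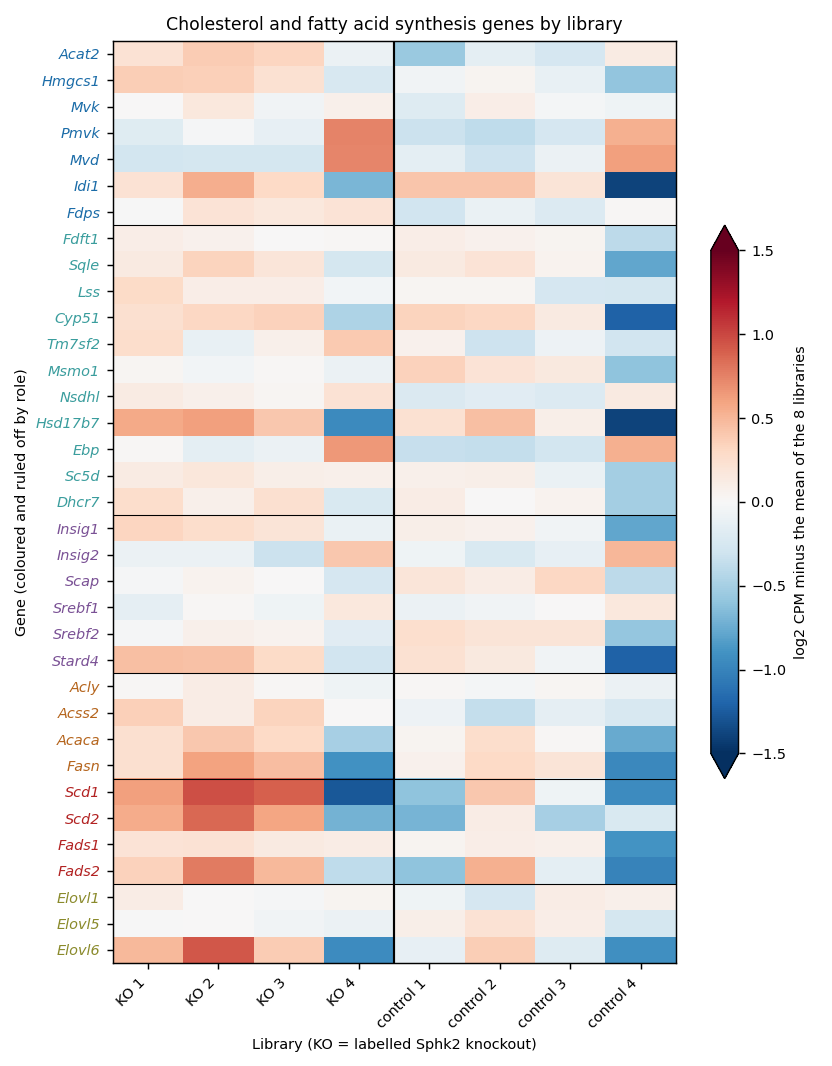
Log2 CPM of each of the 35 genes in each of the 8 libraries after the gene's mean over the libraries is removed, as a colour scale, with genes in pathway order and knockout-labelled libraries left of controls. The columns numbered 4 differ from the others in both groups, with 25 of 35 genes below the mean of numbers 1 to 3 in each.

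Within numbered pairs, knockout-labelled minus control, the median log2 difference over the 35 genes was 0.18, 0.14, 0.19 and 0.22 in pairs 1 to 4, so the size of the median was similar in each pair. The medians by role differed more between pairs, and that difference was not tested. The sterol enzymes had medians of 0.14, 0.09, 0.19 and 0.42, with 11 of 11 higher in pair 4, and the desaturases had 1.08, 0.40, 0.80 and 0.14. Mevalonate enzymes had medians of 0.19, 0.30, 0.14 and 0.18, and the genes of carbon supply and fatty acid synthesis had 0.19, 0.22, 0.27 and 0.15. The knockout-labelled library was the higher in 4 of 4 pairs for 18 of 35 genes (51.4%), against 15.4% of all genes tested, and the lower in 4 of 4 pairs for 0 of 35, against 13.4% of all genes. Summed over the 35 genes, the levels were 2534, 2727, 2547 and 2026 CPM in knockout-labelled libraries 1 to 4, against 2242, 2391, 2252 and 1717 CPM in controls 1 to 4. Each knockout-labelled library had the larger sum of its pair, and number 4 had the smallest sum in both groups. The median log2 fold change was 0.26 without the knockout-labelled library 4 and 0.09 without control 4.

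**Figure D5:**
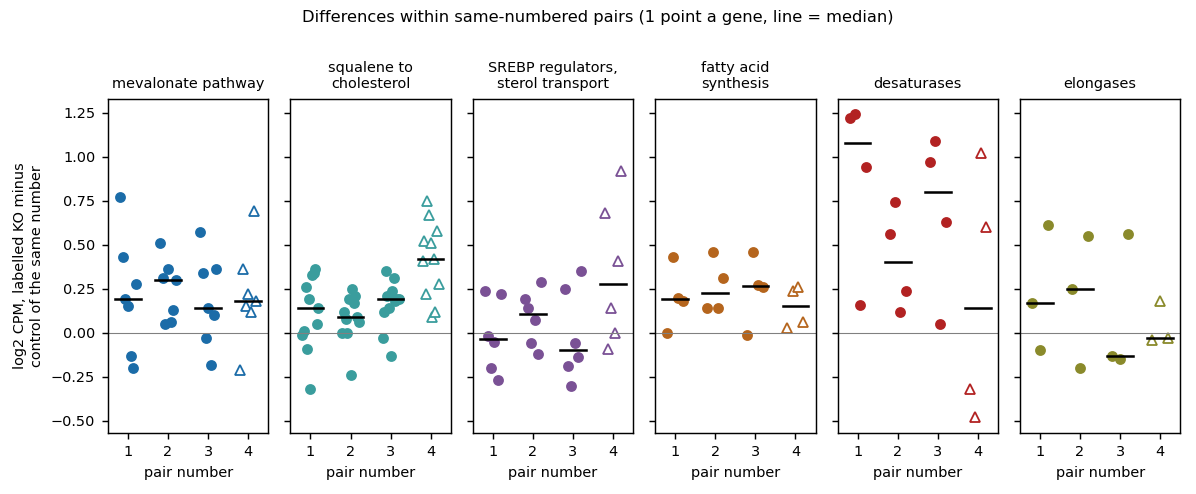
Log2 difference of CPM, knockout-labelled minus control, of each gene within each of the 4 numbered pairs, with genes grouped by role. The desaturases have the highest median in pairs 1 to 3, and the sterol enzymes are all above 0 in pair 4.

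Other genes of the same pathways, outside the 35, were counted in the same fits, and 0 were called with all 8 libraries without the block. Over all genes, the shares called higher and lower were 7.78% and 6.29% in numbers 1 to 3, and 12.3% and 11.9% with the block there. Of 11 other isoprenoid and sterol genes, 0 were called with the block, 3 rose and 0 fell in numbers 1 to 3, and with the block there 3 rose and 2 fell. In that last fit the log2 fold changes of those that rose were, for Por (0.47, edgeR adjusted p = 0.000352), the electron donor of the cytochrome P450 enzymes, for Tmem97 (0.56, edgeR adjusted p = 0.00108), the sterol-binding sigma receptor, and for Acat1 (0.42, edgeR adjusted p = 0.00454), the mitochondrial thiolase. Those that fell were Cyb5r3 (-0.21, edgeR adjusted p = 0.0127), an electron carrier reductase, and Pgrmc1 (-0.19, edgeR adjusted p = 0.0169), a heme-binding partner of cytochrome P450 enzymes. Of 9 other SREBP processing genes, 0 were called with the block, 0 rose and 1 fell in numbers 1 to 3, and 1 rose and 1 fell with the block there. Mbtps1 (-0.29, edgeR adjusted p = 0.00461), the first SREBP protease, fell, and Sec24d (0.21, edgeR adjusted p = 0.0279), a vesicle coat gene, rose.

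Among 14 genes of sterol uptake, storage and efflux, 1 (7.14%) rose with all 8 libraries and the block, against 1.31% of all genes. Without number 4, 6 (42.9%) rose, against 7.78%, and 0 fell, against 6.29%; with the block there 8 (57.1%) rose, against 12.3%, and 1 (7.14%) fell, against 11.9%. The gene called with all 8 libraries was Nceh1, a cholesteryl ester hydrolase (0.39 ± 0.06, edgeR adjusted p = 0.0397), higher in 4 of 4 pairs. In numbers 1 to 3 with the block, the cholesterol exporters Abcg1 (1.14, edgeR adjusted p = 5.79e-05) and Abca1 (0.45, edgeR adjusted p = 0.00285) rose, as did Nr1h3 (0.68, edgeR adjusted p = 0.00328), which encodes the sterol-sensing liver X receptor alpha, and Mylip (0.43, edgeR adjusted p = 0.000439), a ligase that degrades the LDL receptor. The lysosomal cholesterol carrier Npc2 (-0.20, edgeR adjusted p = 0.0164) fell. In pair 4 the knockout-labelled library was lower for Abcg1 (log2 difference -2.37), Nr1h3 (-0.31) and Mylip (-0.49), and higher for Abca1 (0.29). With all 8 libraries and the block, the log2 fold change of Abcg1 was 0.40 ± 0.71 (edgeR adjusted p = 0.797). Of 23 other fatty acid genes, 20 were tested, and 1 (5%) rose with all 8 libraries and the block, against 1.31% of all genes. Of the 20, 2 (10%) rose in numbers 1 to 3, against 7.78%, and 0 fell, against 6.29%; with the block there 4 (20%) rose, against 12.3%, and 1 (5%) fell, against 11.9%. The 10% is near the share of all genes. Hacd4, a dehydratase of the elongation cycle, was the gene called with all 8 libraries (0.44 ± 0.06, edgeR adjusted p = 0.0361). Idh1 (0.31, edgeR adjusted p = 0.00268) and G6pdx (0.23, edgeR adjusted p = 0.0197), sources of NADPH, and Acsl4 (0.15, edgeR adjusted p = 0.0478), an acyl-CoA synthetase, rose in numbers 1 to 3 with the block, and Fads3 (-0.39, edgeR adjusted p = 0.00118) fell.

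Markers of dividing cells were also higher under the knockout label. All 12 had positive log2 fold changes with all 8 libraries (median 1.11), against 46.7% of all genes. With the block 2 (16.7%) rose, against 1.31% of all genes. In numbers 1 to 3 without the block, 10 (83.3%) rose, against 7.78%. Their summed level was 802.6 to 1237 CPM in knockout-labelled libraries and 348.1 to 626.4 CPM in controls, without overlap. Control 4 had the highest sum of these markers among controls (626.4 CPM) and the lowest sum of the 35 genes. The knockout-labelled library 4 had the lowest sum of its group for both, with 802.6 CPM for these markers. Within pairs 1 to 4 their median log2 difference was 1.75, 0.99, 1.5 and 0.28, smallest in pair 4, where the median of the 35 genes was 0.22. The macrophage markers summed to 28456 to 48500 CPM in knockout-labelled libraries and 28171 to 37480 CPM in controls, with 6 of 12 positive. The osteoblast markers summed to 4158 to 15700 CPM in knockout-labelled libraries and 6432 to 16881 CPM in controls, with 5 of the 9 tested positive, and of the 7 osteoclast markers tested 0 were positive in the unblocked fit of all 8 libraries, 2 once the block was added and 4 when number 4 was left out. Adipocyte markers summed to 386.8 to 1078 CPM in knockout-labelled libraries and 400.9 to 712.6 CPM in controls, with 5 of the 6 tested positive (median 0.57). With all 8 libraries, 0 of these 6 were called, with or without the block. In numbers 1 to 3, 2 (33.3%) rose, against 7.78% of all genes, and 0 fell, against 6.29%. With the block there 4 (66.7%) rose, against 12.3%, and 0 fell, against 11.9%. Of the adipocyte markers too low to be tested, Adipoq reached at most 0.0728 CPM in knockout-labelled libraries and 0.225 CPM in controls. Lep was at 0 in every library. Plin1, Cidec, Cfd and Retn stayed at or below 0.146 CPM in knockout-labelled libraries and 0.42 CPM in controls. Lpl, a lipase gene also active in macrophages, was among the larger parts of that sum, with 298.6, 295.5, 449.6 and 95.9 CPM in knockout-labelled libraries, against 115.2, 125.8, 115.2 and 112.4 CPM in controls. The part of cell division or cell makeup in the lipid gene differences was not tested.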

How the data were processed

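The authors deposited raw counts, whole numbers of reads for each gene symbol. The submitters' processing notes name STAR 2.7.11b, featureCounts 2 and build GRCm38 (mm10). The annotation, the use of strand and the treatment of reads with several alignments are not given in the sources used here, so a gene and its antisense or near-identical partner cannot be told apart. Groups and numbers came from the sample titles.

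Counts were analysed in R 4.3.3 with edgeR 4.0.16 (filterByExpr, TMM, robust quasi-likelihood F test, genotype as the only term). Benjamini-Hochberg adjustment ran over every gene that passed the filter, and the threshold was 0.05. SE is the log2 fold change divided by the square root of F, and intervals are 95%. Log2 CPM used a prior count of 2. Exon lengths, overlaps and shared 50-base stretches came from GENCODE mouse release 21 (M21) on GRCm38, and start regions from RefSeq. Exon length is the merged length of the exons of all annotated transcripts of a gene. DESeq2 1.42.0, limma 3.58.1 (voom), other scalings, no filter, a replicate block and leaving out libraries were the alternatives. The procedure was tested on simulated data.

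To check whether the numbers pair libraries, each library's deviation from its group mean was correlated over genes. Over all 8 libraries, those of the same number gave r of 0.46 to 0.829, against -0.757 to 0.572 for unlike numbers, so these ranges overlapped. Of the 8 libraries, 6 had their highest r with the library of the same number in the other group. Within numbers 1 to 3, the same number gave 0.161 to 0.376, against -0.255 to -0.0234 for unlike numbers there. Deviations from a group mean cancel out within the group, so positive same-number values by themselves lower the unlike-number values. The contrast between them is therefore partly built in. Over all 8 libraries, the values also reflect that number 4 stood apart in both groups. All same-number values were above 0.1, so pairing was assumed; it comes from the data, since no label states it.

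Every one of the 35 genes is described. Values per library are given for genes called with or without the block, for the 6 with the smallest unadjusted p, for Srebf1, Srebf2, Scap, Insig1 and Insig2, and for Sqle, Fasn, Acaca, Scd1 and Scd2; Fads1 was added after its values were seen. Pathway genes outside the 35 are named where called, up to 6 a list; some genes of these pathways are not reported here. The members, the lists and the motifs were chosen with earlier results of these data known.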

Additional observations from a re-analysis of the deposited data

Results flagged for a closer look

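Of groups of 4 libraries, 70 were checked for a library far from the other 3 (35 genes, knockout-labelled and control), and chance marks about 1 in 20. In 10 of them, for 8 genes, the highest or lowest library lay far from the rest, and each time it was the library numbered 4. Pmvk reached 22.1 CPM in the knockout-labelled library 4 and 19.0 CPM in control 4, the highest of each group. Mvd reached 52.7 CPM in the knockout-labelled library 4. Ebp reached 55.4 CPM in the knockout-labelled library 4 and 51.0 CPM in control 4, and Nsdhl reached 27.1 CPM in control 4. At the low end, Cyp51 was at 48.7 CPM in the knockout-labelled library 4. Control 4 was lowest for Fdft1 at 25.6 CPM, for Srebf2 at 144.0 CPM and for Fads1 at 102.2 CPM. What sets number 4 apart was not tested.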

How the results depend on the processing

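Over 26 alternatives, 826 of 910 gene-level results kept their direction and their side of the threshold, 43 passed it anew and 41 changed sign. Over all genes, the calls higher and lower were 127 and 49 with DESeq2, 168 and 151 with the replicate block, 541 and 404 with DESeq2 and the block, 349 and 281 with limma-voom and the block, 1593 and 1539 with the block without number 4, 1050 and 956 with DESeq2 without number 4, and 986 and 781 with limma-voom without number 4. Leaving out libraries or numbers gave 0 to 1005 higher and 0 to 812 lower, against 0 and 0. Of the 35 genes, 1 was called higher with the block, 2 with DESeq2 and the block, 1 with limma-voom and the block, 7 without number 4 with DESeq2 or limma-voom, and 15 higher and 3 lower with the block without number 4; the leave-outs gave 0 to 7 higher. Their median log2 fold change, 0.21, was 0.17 without number 4 with DESeq2 or limma-voom and 0.09 to 0.26 over the leave-outs. The fits with DESeq2 or limma-voom plus the block or without number 4 were chosen after seeing the data. Signs turned for 12 genes whose log2 fold changes lay near 0 or whose number 4 libraries differ. Leave-outs ranged from -0.12 to 0.29 for Cyp51, -0.01 to 0.47 for Ebp, -0.004 to 0.12 for Elovl1, -0.03 to 0.13 for Fdft1, -0.19 to 0.29 for Idi1, -0.21 to 0.14 for Insig2, -0.26 to 0.02 for Msmo1, -0.33 to 0.23 for Mvd, -0.05 to 0.47 for Pmvk, -0.02 to 0.27 for Sqle, -0.07 to 0.04 for Srebf1 and -0.23 to 0.01 for Srebf2. With library totals as the only scaling Mvd was at 0.01 and Srebf1 at 0.02. Without number 4, Fdft1 was at -0.01 with the block, DESeq2 or limma-voom. With the block, leaving out number 1 gave 0.04 for Msmo1, 0.0003 for Mvd, 0.0007 for Srebf1 and 0.05 for Srebf2, leaving out number 2 gave 0.02 for Msmo1 and 0.005 for Srebf2, and leaving out number 3 gave 0.009 for Insig2, 0.02 for Mvd, 0.006 for Srebf1 and 0.002 for Srebf2. The causes were not tested. The pairing rests on the data, with 4 pairs, and with all 8 libraries the block changed the call of Hmgcs1 with each tool and of Fads2 with DESeq2. In numbers 1 to 3 it moved the calls among the 35 to 15 higher and 3 lower, against 7 and 0 without it. Depth, at 14347495 counts or more, left every one of the 35 above the low-count filter.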
